A study of Homo sapiens with 18 samples.

Results

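The genes described here are 35 components of tight junctions and of the apical polarity complexes, among 61541 genes counted by RNA-seq in A549 cells. They were chosen by name, as the rows whose Ensembl identifier carries one of the 35 symbols in the GENCODE annotation of GRCh38. This choice was made with earlier results of these data known. The list holds 15 claudins, 4 other junction membrane proteins (OCLN, MARVELD2, MARVELD3, F11R), 7 scaffold proteins (TJP1, TJP3, CGN, CGNL1, MAGI1, MAGI3, AMOTL1), 6 genes of the PAR complex (PARD3, PARD6A, PARD6B, PARD6G, PRKCZ, PRKCI) and 3 of the Crumbs complex (CRB3, PALS1, PATJ). A549 is an established epithelial-type line from a human lung adenocarcinoma, labelled wild type and used here as cultures of that 1 line, in medium with fetal bovine serum. Sodium propionate (SP), the salt of a short-chain fatty acid, was given at 5 mM. The groups were untreated cells at 24 h, SP 3 h and SP 24 h in one count table, and untreated cells at 3 days, SP 3 days and SP 12 days in the other, with 3 libraries each. The 3 h treatment had no control of its own time and was set against the 24 h control, and the 12-day treatment was set against the 3-day control, so in these 2 comparisons SP and time in culture cannot be told apart.

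Tight junctions seal the space between neighbouring epithelial cells at the apical end of their lateral membranes. Claudins form the strands: some, such as CLDN1, CLDN3 and CLDN4, tighten the barrier, whereas CLDN2 forms a pore for small cations and water. Occludin (OCLN) and its relatives MARVELD2 (tricellulin) and MARVELD3 sit in the same strands, and ZO proteins (TJP genes), cingulin (CGN) and MAGI proteins tie them to actin. The PAR complex (PARD3, PARD6 and an atypical protein kinase C) and the Crumbs complex (CRB3, PALS1, PATJ) set the position of the junction along the apical-basal axis. In carcinoma cells, repressors of the epithelial state such as ZEB1 and SNAI1 bind E-boxes of the form CAGGTG, and grainyhead-like factors, which maintain epithelial genes, bind sites built on AACCNG.

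Start-site windows of 250 bases were available from RefSeq (GRCh38.p14) for 29 of the 35 genes and covered 45 start sites. CLDN9, PARD3, F11R, CLDN23, PARD6B and MARVELD3 had no entry. The E-box letters CAGGTG, searched on both strands, were found at 11 of these 45 start sites, against 17.5% of 35116 start sites of all genes. The letters AACCNG, also on both strands, were found at 18 of 45, against 32.0% of all. The 2 motifs can overlap where one begins inside the other. Sequences are shown for CRB3, CLDN7, CLDN4 and CGN only, and other members had matches too. Among members higher at every time, AACCNG was found 2 times at CGN and 1 time at CLDN4. It was found 0 times at CGNL1, and 0 and 1 times at the OCLN start sites. It was also found 3 times at 1 CLDN7 start site and 2 times at MAGI3, which passed in no comparison with control. CRB3 had 5 E-boxes, the most of any member, and CLDN7 had 4 at 1 of its start sites. Of the members that passed as higher at every time, OCLN had 1 E-box at each of its 2 start sites, whereas CGN, CGNL1 and CLDN4 had none in this window and F11R had no entry. Annotated exons of the same gene cover the whole 250 bases at CLDN4, at this CLDN7 start site and at the first OCLN start site, and 193 bases at CRB3. The CRB3 match at -60 and the CLDN7 match at -135 span an exon end. For CRB3, CLDN7 and CLDN4, only 30 bases around a match are printed, with the motif in capitals and the number giving its first base counted back from the start site.
CRB3 -228, chr19:6464031-6464060 (plus strand): atgctcgcaatgCAGGTGtaaggtccccct
CRB3 -147, chr19:6464112-6464141 (plus strand): ggggtcccgttaCAGGTGcgcccacagcgc
CLDN7 -20, chr17:7262481-7262510 (minus strand): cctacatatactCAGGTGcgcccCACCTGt
CLDN4 -16, chr7:73830966-73830995 (plus strand): ccatataactgctcAACCTGtccccgagag
For CGN the whole window is printed 5′ to 3′, chr1:151511137-151511386 on the plus strand, with its 2 AACCNG matches in capitals.
CGN: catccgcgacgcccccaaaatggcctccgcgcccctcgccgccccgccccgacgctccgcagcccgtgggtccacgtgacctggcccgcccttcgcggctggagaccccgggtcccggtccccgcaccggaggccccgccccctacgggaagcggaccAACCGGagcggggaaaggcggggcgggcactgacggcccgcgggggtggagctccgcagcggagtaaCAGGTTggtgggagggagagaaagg
These matches describe letters in the reference sequence only, and binding was not measured in these data.

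Library totals ran from 15425281 to 21992046 reads in the table of 3 and 12 days and from 14187401 to 43765330 in the table of 3 and 24 h. Keratins KRT8 and KRT18 and CDH1 were present in all libraries, CD3E was at 0 in every group and PTPRC did not exceed a mean of 0.052 CPM (read counts scaled to library size, with TMM factors). CD14, from the same leukocyte list, was higher at 24 h and 3 days (log2 fold change 2.22 and 1.08), and the endothelial marker CDH5 was lower at 3 days and 12 days (log2 fold change -0.94 and -1.50), with summed endothelial markers between 0.244 and 2.94 CPM in every library. COL1A1, a marker of fibroblasts, rose with SP (log2 fold change 2.48 at 24 h, 2.22 at 3 days and 1.48 at 12 days). LUM, from the same list, passed as higher at 3 days and 12 days (log2 fold change 2.04 and 3.03) and not at 3 h or 24 h. COL3A1 and PDGFRA passed in no comparison with control, and DCN stayed at or below a mean of 0.18 CPM. The summed level of the 5 fibroblast markers was 6.72 to 22.4 CPM in the 24 h controls, 62.7 to 90.7 in SP 24 h, 15.4 to 16.4 in the 3-day controls, 63.6 to 74.1 in SP 3 days and 36.1 to 65.2 in SP 12 days. Summed leukocyte markers were 5.61 to 8.17 CPM, 19.1 to 22.1, 18.4 to 20.4, 36.7 to 40.3 and 15.2 to 29.3 in these groups, and summed epithelial markers were 6558 to 8043 CPM, 11319 to 12904, 5750.1 to 7408, 10363 to 11292 and 9751 to 13459. In SP 3 h the fibroblast, leukocyte and epithelial sums were 19.1 to 39.1, 6.15 to 8.25 and 6305 to 8075 CPM. The part of these markers in the results was not tested. SP 12 days replicate 3 stood apart from the other 2 libraries of its group in several claudins. The 12-day log2 fold changes of CLDN2, CLDN3, CLDN4, CLDN7 and CLDN10 are given with and without it. Those of other members are given with all libraries, and some of them also depend on it. Without it, the 12-day log2 fold change was 1.39 for CLDN16, 0.40 for TJP3 and 0.19 for MAGI1, which then did not pass. Because these are bulk samples, fewer cells with a transcript and less transcript per cell cannot be told apart.

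Filtering on low counts left 32 of the 35 genes for testing in the table of 3 and 24 h and 31 in the table of 3 and 12 days. CLDN6, CLDN11 and CLDN18 were tested in neither table and CLDN14 only in the former. At an adjusted p under 0.05 (edgeR, Benjamini-Hochberg over all tested genes), 6 members were higher and 0 lower after 3 h of SP, where 7.39% of all tested genes were higher and 4.11% lower. Without adjustment 2 members were lower at p under 0.05, and DESeq2 called 8 higher and 2 lower. The 2 lower with DESeq2 were CLDN2 and PARD3 (DESeq2 adjusted p = 0.039 and 0.00913). CLDN3 and PARD6B were higher with DESeq2 (DESeq2 adjusted p = 0.029 and 0.0405) but did not pass with edgeR. After 24 h, 16 members were higher and 1 lower, against 16.8% and 12.0% of all genes. After 3 days 19 were higher and 2 lower, against 25.2% and 23.3%, and after 12 days 21 were higher and 3 lower, against 26.4% and 23.4%. The median log2 fold change of the tested members was 0.37, 0.62, 0.48 and 0.40 in that order, while the median of all tested genes lay between -0.02 and 0.00. Offsets for GC content and transcript length gave 7 higher and 1 lower at 3 h (8.72% and 9.5% of all genes), 16 and 4 at 24 h (14.4% and 25.1%), 19 and 4 at 3 days (21.3% and 33.4%), and 20 and 5 at 12 days (22.8% and 32.1%). They moved the median of all genes most at 24 h, by -0.12 on the log2 scale. The libraries of the SP group lay wholly above those of the control for 15.6% of all genes at 3 h, 24.6% at 24 h, 30.5% at 3 days and 28.7% at 12 days, and wholly below for 11.7%, 19.8%, 30.7% and 27.3%. At the stricter threshold of the study applied to the edgeR fit, a change of 2-fold or more with an adjusted p below 0.0001, 0 members passed at 3 h, where 0.0% of all genes did. At 24 h 1 passed as higher (0.622% of all genes higher, 0.0633% lower), at 3 days 9 as higher (6.58% and 1.86%), and at 12 days 7 as higher and 1 as lower (6.88% and 2.23%). With DESeq2, the tool the study used, 2 members passed this threshold as higher at 3 h, CLDN4 and CGN (1.71% of all genes higher, 0.679% lower), 7 as higher and 1 as lower at 24 h (5.74% and 1.12%), 10 and 1 at 3 days (7.85% and 2.13%), and 8 and 1 at 12 days (7.96% and 2.73%).

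**Figure D1:**
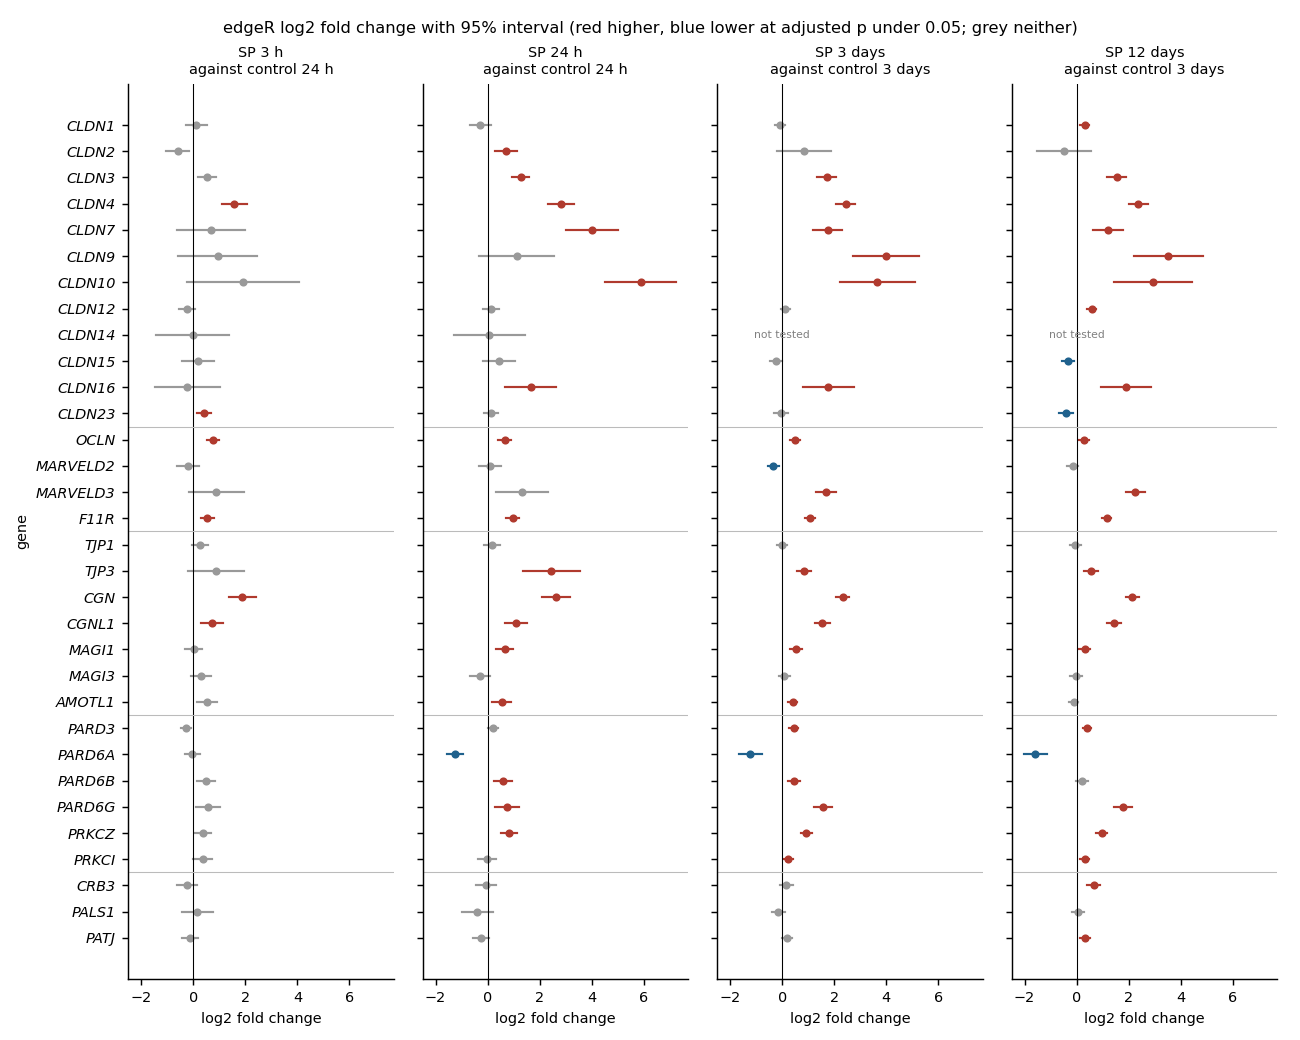
Log2 fold change (x axis) of each tested member (y axis) in the 4 comparisons with control, with its 95% interval from edgeR. Red points passed as higher, blue as lower and grey did not pass: 16 of 32 members were red at 24 h and 21 of 31 at 12 days, and PARD6A was blue in 3 panels. Among all tested genes, 16.8% passed as higher at 24 h and 26.4% at 12 days.

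Across the 4 comparisons with control, 5 members rose each time: CLDN4, CGN, CGNL1, F11R and OCLN. Of the 16654 genes tested in both tables, 3.58% did so, and the comparisons within a table share their controls. Another 8 passed as higher in 3 of them (CLDN3, CLDN7, CLDN10, CLDN16, TJP3, MAGI1, PARD6G, PRKCZ), in each case at 24 h, 3 days and 12 days, as did 7.51% of all genes. PARD6A was the member that passed as lower at these 3 times, as did 4.91% of all genes. TJP1, MAGI3 and PALS1 were tested throughout and passed in none.

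**Figure D2:**
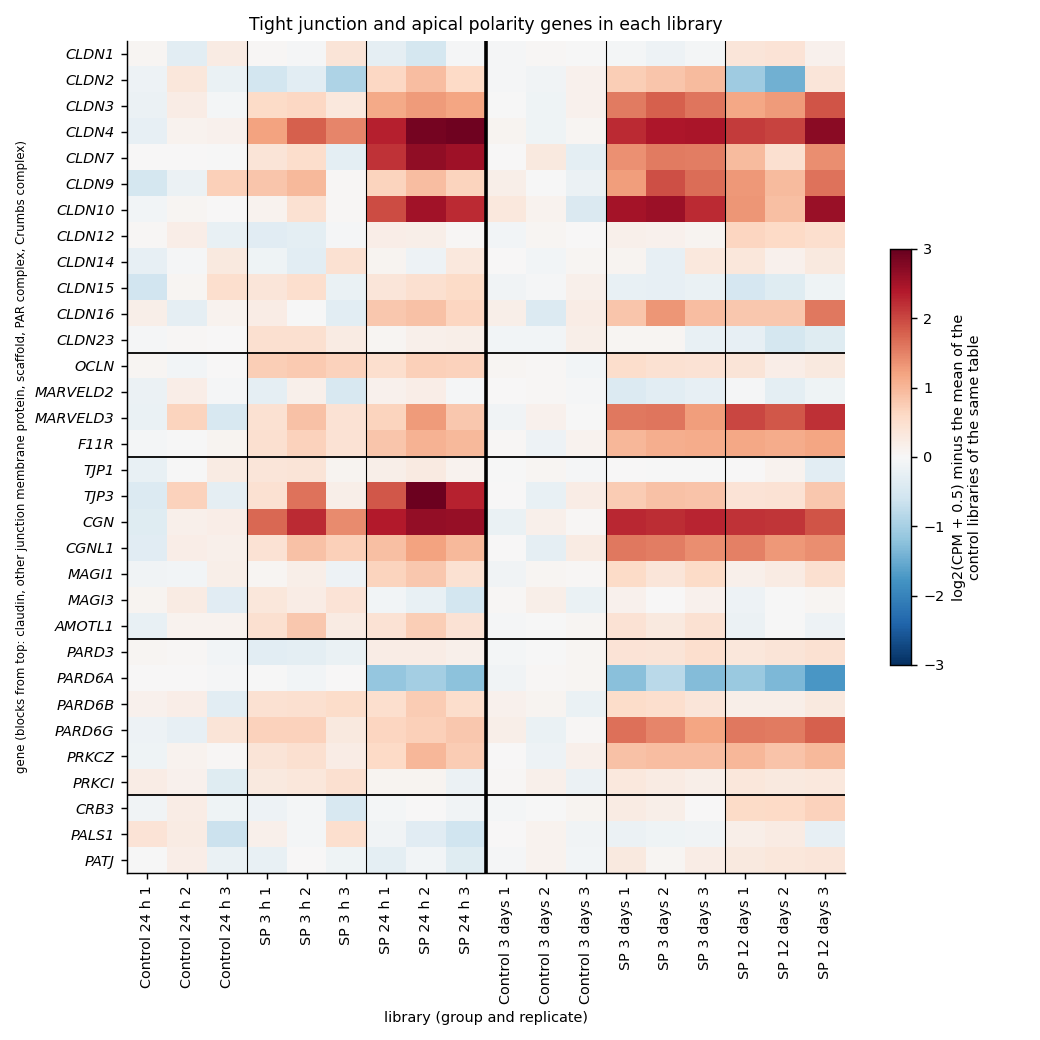
Each of the 32 tested members (rows, in blocks by role) in each of the 18 libraries (columns), as log2(CPM + 0.5) minus the mean of the control libraries of its table, on a colour scale from -3 to 3. The CLDN4 and CGN rows are red in every SP library, the PARD6A row is blue from SP 24 h on, and CLDN2 differs in sign between SP 12 days replicate 3 and the other 2 libraries of that group.

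Of the claudins tested, 2 of 12 passed as higher at 3 h, 6 of 12 at 24 h, 6 of 11 at 3 days and 8 of 11 at 12 days, where 2 also passed as lower. Among all tested genes, 7.39%, 16.8%, 25.2% and 26.4% passed as higher at these times, and 23.4% as lower at 12 days. CLDN4 passed as higher at every time. It stood at 5.08, 6.66 and 6.73 CPM in the 24 h controls, at 14.7, 22.5 and 17.8 CPM after 3 h of SP and at 32.6, 47.96 and 49.7 CPM after 24 h. All SP libraries lay above all controls, by 2.99-fold at 3 h (log2 fold change 1.58, SE 0.22, edgeR adjusted p = 0.00254) and 7.04-fold at 24 h (log2 fold change 2.82, SE 0.22, edgeR adjusted p = 6.8e-05). In the other table the controls had 8.32, 7.21 and 8.22 CPM, SP 3 days 39.2, 44.4 and 45.3 CPM and SP 12 days 35.2, 33.7 and 53.97 CPM, again without overlap (log2 fold change 2.44, SE 0.17, edgeR adjusted p = 6.86e-08 at 3 days and log2 fold change 2.37, SE 0.17, edgeR adjusted p = 7.36e-08 at 12 days). The 12-day log2 fold change was 2.099 without SP 12 days replicate 3. CLDN3, a barrier claudin whose gene lies beside CLDN4 (chr7:73768997-73770270 on the minus strand and chr7:73799542-73832690 on the plus strand, GRCh38), had 5.66, 7.66 and 6.24 CPM in the 24 h controls and 14.9, 16.5 and 15.5 CPM in SP 24 h (log2 fold change 1.26, SE 0.15, edgeR adjusted p = 0.000432). After 3 h it had 9.81, 10.2 and 8.23 CPM, above every control library but with an edgeR adjusted p = 0.0529. Its 3-day values were 8.22, 7.58 and 9.16 CPM in controls and 25.6, 29.9 and 26.4 CPM with SP (log2 fold change 1.71, SE 0.17, edgeR adjusted p = 1.68e-06), and SP 12 days had 19.3, 20.96 and 31.99 CPM (log2 fold change 1.54, or 1.26 without replicate 3).

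CLDN7, CLDN9, CLDN10 and CLDN16 were scarce in controls, so their folds rest on few reads. CLDN7 had 4, 4 and 6 reads (0.212, 0.211 and 0.210 CPM) in the 24 h controls, 6, 16 and 2 reads after 3 h of SP and 67, 178 and 108 reads (2.71, 3.98 and 3.65 CPM) after 24 h (log2 fold change 4.01, SE 0.44, edgeR adjusted p = 0.000275). The ratio of its summed reads at 24 h was 16.9, with a 95% exact interval of 9.94 to 31.2 that covers counting error only. At 3 days it went from 1.53, 1.94 and 1.12 CPM to 4.69, 5.36 and 5.32 CPM (log2 fold change 1.74, SE 0.26, edgeR adjusted p = 5.3e-05), and at 12 days to 3.35, 2.30 and 4.79 CPM (log2 fold change 1.19, 0.84 without replicate 3). CLDN9, which lies next to CLDN6 on chromosome 16, had 3, 1 and 0 reads in the 3-day controls, 14, 27 and 22 in SP 3 days and 14, 12 and 28 in SP 12 days. That gave a read ratio of 17.1 (6.36 to 64.7) at 3 days and 12.4 (4.58 to 47.3) at 12 days, and both passed (edgeR adjusted p = 5.04e-05 and 0.000227). In the 24 h controls CLDN9 was uneven, with 1, 4 and 23 reads, and its change at 24 h did not pass. CLDN10, an ion channel-forming claudin, had 2 reads in the 24 h controls together and 211 in SP 24 h, a ratio of 70.7 (19.3 to 588). Its reads at 3 days were 9, 5 and 1 in controls and 61, 65 and 51 with SP (log2 fold change 3.66, SE 0.65), and SP 12 days had 22, 18 and 90 (log2 fold change 2.93, 1.96 without replicate 3). Since 1558 bp of CLDN10 exons overlap DZIP1 on the opposite strand and the strandedness of the counting is not stated, its reads cannot be told apart from DZIP1 there. CLDN16, which acts in renal magnesium transport, passed as higher at 24 h, 3 days and 12 days with log2 fold changes of 1.64, 1.77 and 1.90 on 16 to 79 summed reads a group.

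Per unit of exon length, CLDN2 and CLDN1 carried most claudin RNA. CLDN2, the pore-forming member, had 22.6 ± 5.05 RPKM (reads per kilobase of exon, on the CPM scale, mean ± SD, n = 3) in the 24 h controls and 76.5 ± 6.78 RPKM in the 3-day controls, in tables that were scaled separately. CLDN1 had 27.7 ± 5.40 and 17.6 ± 0.491 RPKM in these groups, so the order of the 2 genes differed between the tables. CLDN3 (6.53 ± 0.623), CLDN12 (6.67 ± 0.344), CLDN23 (7.84 ± 0.887) and CLDN15 (9.30 ± 0.869) followed in the 3-day controls, and CLDN4 stood at 1.68 ± 0.131 RPKM. In SP 3 days CLDN3 reached 21.4 ± 1.77 RPKM and lay above CLDN1 at 16.5 ± 0.586 RPKM. CLDN4 made up 1.84% ± 0.18 (SD, n = 3) of summed claudin RPKM in the 24 h controls and 9.18% ± 1.53 in SP 24 h. The length used is that of all annotated exons joined, 4699 bp for CLDN4 and 1274 bp for CLDN3. Levels and shares of different genes therefore depend on which transcripts the cells make, which was not measured. The summed level of the 15 claudins was 66.5 to 73.8 RPKM in the 24 h controls and 93.1 to 104 RPKM in SP 24 h, and 121 to 137 RPKM in the 3-day controls and 201 to 221 RPKM in SP 3 days. CLDN2 alone went from 76.5 to 137 RPKM on average between these last groups.

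CLDN2 differed in sign between times and, at 12 days, between libraries. Its CPM were 67.9, 97.1 and 66.7 in the 24 h controls, 51.7, 61.04 and 40.1 after 3 h and 116, 146 and 116 after 24 h of SP. The 3 h libraries lay below all controls without passing (log2 fold change -0.60, edgeR adjusted p = 0.0812), and the 24 h libraries lay above them (log2 fold change 0.71, SE 0.19, edgeR adjusted p = 0.0235), a call that was lost without control 24 h replicate 1 or SP 24 h replicate 2. The 3-day values were 255, 242 and 287 CPM in controls and 437, 464 and 503 CPM with SP, and the 12-day values were 123, 96.3 and 333 CPM. With all libraries neither change passed (log2 fold change 0.84, adjusted p = 0.158, and -0.50, adjusted p = 0.385, edgeR). Without SP 12 days replicate 3 both passed, with log2 fold changes of 0.84 (edgeR adjusted p = 3.33e-09) and -1.27 (edgeR adjusted p = 5.12e-11).

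**Figure D3:**
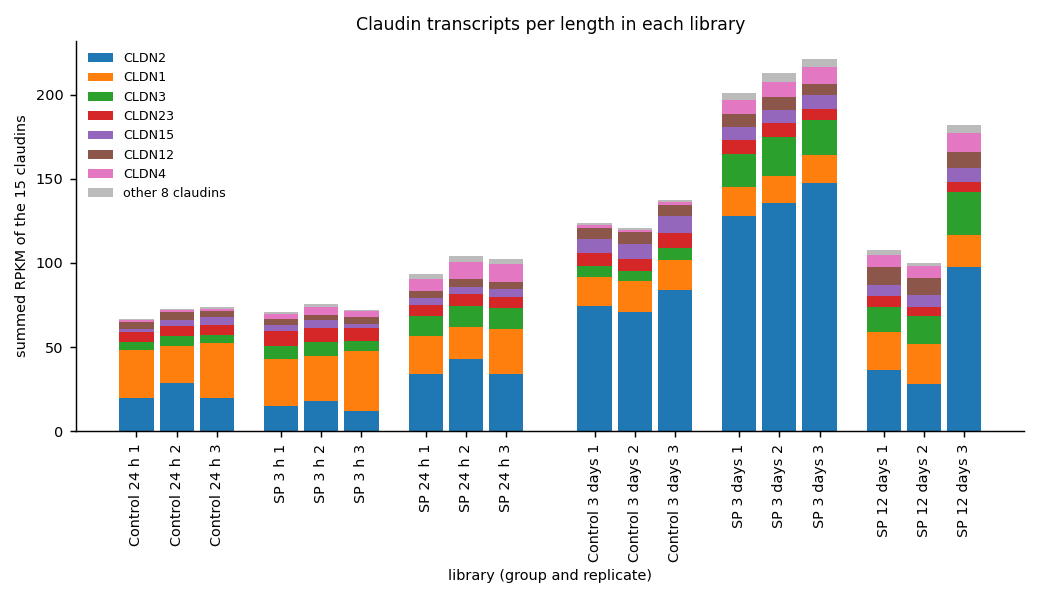
Summed RPKM of the 15 claudins (y axis) in each of the 18 libraries (x axis), split by claudin. The CLDN4 segment is taller in SP 24 h than in the 24 h controls, the CLDN2 segment is tallest in SP 3 days, and replicate 3 of SP 12 days reaches 182 RPKM while the lowest library of its group is at 100.3 RPKM.

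The remaining claudins passed in 1 or 2 comparisons or in none. CLDN1 and CLDN12 passed as higher only in the comparison of 12 days with the 3-day control (log2 fold change 0.31 and 0.58), and CLDN15 and CLDN23 as lower (-0.33 and -0.40). Without control 3 days replicate 3, only 1 member passed as lower at 12 days, against 3 with all libraries. At least 1 of these 2 falls therefore depended on that library. CLDN23 also passed as higher at 3 h (log2 fold change 0.41, edgeR adjusted p = 0.0476), but 16 of 18 alternative settings lost that call. CLDN23 at 24 h had a log2 fold change of 0.13 that turned to -0.41 (edgeR adjusted p = 0.0154) with offsets for GC content and length. CLDN6 had 1 to 29 reads in a library, CLDN11 0 to 13, CLDN14 0 to 14 and CLDN18, the claudin typical of lung alveolar epithelium, 1 to 9. For CLDN18 the summed reads were 12 in the 24 h controls and 12 in SP 24 h, with a ratio of 0.67 (0.28 to 1.63), so no difference was detectable at this depth.

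Of the other membrane proteins, F11R (JAM-A, an immunoglobulin-type adhesion molecule that recruits PARD3) rose in steps. Its CPM were 26.8, 27.6 and 29.9 in the 24 h controls, 39.5, 45.7 and 37.8 after 3 h and 50.1, 58.1 and 55.96 after 24 h of SP, with no overlap between either SP group and the controls (log2 fold change 0.54, SE 0.11, edgeR adjusted p = 0.0148 at 3 h and log2 fold change 0.96, SE 0.11, edgeR adjusted p = 0.000418 at 24 h). In the other table it went from 40.98, 35.8 and 43.03 CPM to 80.5, 84.6 and 87.3 CPM at 3 days (log2 fold change 1.07, SE 0.085, edgeR adjusted p = 5.63e-08) and 89.2, 87.2 and 90.5 CPM at 12 days (log2 fold change 1.15, SE 0.084, edgeR adjusted p = 2.17e-08). A readthrough gene on the same strand shares 1853 bp with F11R exons. OCLN had 22.5, 20.3 and 21.6 CPM in the 24 h controls, 36.2, 37.6 and 34.9 CPM after 3 h and 30.4, 35.4 and 35.1 CPM after 24 h (log2 fold change 0.75, SE 0.11, edgeR adjusted p = 0.00287 and log2 fold change 0.65, SE 0.11, edgeR adjusted p = 0.0022). Its 3-day values were 26.6, 26.4 and 24.1 CPM in controls and 37.4, 35.4 and 34.99 CPM with SP, with 33.7, 29.6 and 31.3 CPM at 12 days. All SP libraries lay above their controls here too, at log2 fold changes of 0.48 (edgeR adjusted p = 0.000348) and 0.29 (edgeR adjusted p = 0.0123). OCLN, CLDN7, CRB3, PARD6B and PRKCI each have 1 pseudogene in the annotation, and how reads that map to several places were counted is not stated, so their counts are uncertain to that extent. The same holds for CLDN7 and CLDN12, whose exons share 269 bp and up to 531 bp with another gene on the same strand.

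MARVELD3 had 1.96, 2.38 and 2.13 CPM in the 3-day controls, 7.38, 7.56 and 5.80 CPM in SP 3 days and 10.1, 9.08 and 11.5 CPM in SP 12 days. These groups did not overlap, and the rise was 3.21-fold at 3 days (log2 fold change 1.68, SE 0.18, edgeR adjusted p = 1.21e-06) and 4.77-fold at 12 days (log2 fold change 2.25, SE 0.17, edgeR adjusted p = 2.99e-08). In the 24 h table it was lower, with 0.529, 1.37 and 0.351 CPM in controls, 1.13, 1.69 and 1.10 CPM in SP 3 h and 1.38, 2.37 and 1.55 CPM in SP 24 h. The 24 h change missed the threshold (log2 fold change 1.31, edgeR adjusted p = 0.0542) and passed with the replicate block, the fit that pairs same-numbered libraries (log2 fold change 1.34, edgeR adjusted p = 0.0172). DESeq2, without pairing, also called it (log2 fold change 1.27, DESeq2 adjusted p = 0.0279). Its exons share 1068 bp with PHLPP2 on the opposite strand. MARVELD2, the tricellulin gene, passed once, as lower at 3 days (log2 fold change -0.33, edgeR adjusted p = 0.0154), a call lost without SP 3 days replicate 1.

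Of the 7 scaffolds, 2 passed as higher at 3 h, 5 at 24 h, 5 at 3 days and 4 at 12 days. The shares of all tested genes passing as higher were 7.39%, 16.8%, 25.2% and 26.4%. The cingulin genes rose throughout and ZO-1 did not pass. CGN, which links ZO proteins to actomyosin and holds RhoA regulators at the junction, had 5.19, 7.61 and 7.82 CPM in the 24 h controls, 23.4, 33.6 and 18.95 CPM after 3 h and 37.2, 44.7 and 44.2 CPM after 24 h. No SP library overlapped the controls (log2 fold change 1.88, SE 0.23, edgeR adjusted p = 0.00161 and log2 fold change 2.61, SE 0.24, edgeR adjusted p = 0.00012). In the 3-day table CGN had 6.41, 8.40 and 7.68 CPM in controls, 37.6, 36.5 and 38.5 CPM in SP 3 days and 35.3, 34.7 and 29.1 CPM in SP 12 days. These were rises of 5.03-fold (log2 fold change 2.33, SE 0.12, edgeR adjusted p = 5.52e-10) and 4.42-fold (log2 fold change 2.14, SE 0.12, edgeR adjusted p = 9.36e-10). Its paralog CGNL1 (paracingulin) had 5.08, 7.56 and 7.36 CPM in the 24 h controls, 9.10, 12.6 and 11.04 CPM in SP 3 h and 12.8, 15.8 and 13.5 CPM in SP 24 h. The 3 h call was close to the threshold (log2 fold change 0.71, edgeR adjusted p = 0.0403) and was lost in 11 of 18 alternative settings, while the 24 h call was not (log2 fold change 1.07, SE 0.19, edgeR adjusted p = 0.00308). At 3 days it went from 7.60, 6.27 and 9.16 CPM to 23.7, 22.8 and 20.9 CPM, and SP 12 days had 22.6, 19.4 and 20.7 CPM (log2 fold change 1.55 and 1.44, edgeR adjusted p = 1.15e-07 and 2.15e-07).

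TJP1 encodes ZO-1, the scaffold that nucleates claudin strands, and was the most abundant scaffold. It had 256, 300.0 and 357 CPM in the 24 h controls, 391, 394 and 317 CPM in SP 3 h and 339.6, 363 and 323 CPM in SP 24 h, with overlapping groups. Its values were 217, 226 and 213 CPM in the 3-day controls, 220.0, 216 and 216 CPM in SP 3 days and 221, 236 and 177 CPM in SP 12 days, again overlapping. The log2 fold changes were 0.27, 0.17, -0.009 and -0.051, and the 95% intervals at 24 h (-0.14 to 0.48) and 3 days (-0.21 to 0.19) held no change as large as that of CGN. TJP3 (ZO-3) passed as higher at 24 h (log2 fold change 2.45, SE 0.49, edgeR adjusted p = 0.00649), at 3 days (log2 fold change 0.83) and at 12 days (log2 fold change 0.56). In the 24 h table replicate 2 had the highest TJP3 level of each group, at 4.02, 9.19 and 4.45 CPM in controls, 7.76, 17.97 and 6.32 CPM in SP 3 h and 21.2, 45.4 and 29.1 CPM in SP 24 h. MAGI1, a membrane-associated guanylate kinase of the junction, rose by log2 0.66 at 24 h, 0.52 at 3 days and 0.31 at 12 days, the last of which was lost in 5 settings. AMOTL1, an angiomotin that binds YAP and the Crumbs complex, passed as higher at 24 h (log2 fold change 0.54, a call lost in 7 of 18 settings) and 3 days (log2 fold change 0.40) and stood at -0.11 at 12 days. MAGI3 had log2 fold changes between -0.30 and 0.30 and passed in no comparison with control.

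Of the 6 PAR complex genes, 3 passed as higher at 24 h, 5 at 3 days and 4 at 12 days, and 1 passed as lower each time. The shares of all tested genes at these times were 16.8%, 25.2% and 26.4% higher and 12.0%, 23.3% and 23.4% lower. The 3 PARD6 paralogs, which bridge atypical protein kinase C to CDC42 and PARD3, moved in different directions. PARD6A had 7.46, 7.45 and 7.12 CPM in the 24 h controls and 7.27, 6.94 and 7.38 CPM in SP 3 h, which overlapped, and 3.03, 3.36 and 2.84 CPM in SP 24 h, below every other library of the table (log2 fold change -1.25, SE 0.13, edgeR adjusted p = 0.000216). The 3-day controls had 6.17, 6.77 and 6.97 CPM, SP 3 days 2.50, 3.60 and 2.39 CPM and SP 12 days 2.78, 2.30 and 1.64 CPM. All SP libraries lay below the controls (log2 fold change -1.23, SE 0.20, edgeR adjusted p = 0.000132 at 3 days and log2 fold change -1.59, SE 0.21, edgeR adjusted p = 1.17e-05 at 12 days). PARD6G had 3.83, 2.88 and 3.43 CPM in the 3-day controls, 11.7, 10.2 and 8.31 CPM in SP 3 days and 11.002, 10.9 and 12.8 CPM in SP 12 days. This gave 2.96-fold (log2 fold change 1.57, SE 0.16, edgeR adjusted p = 1.3e-06) and 3.40-fold rises (log2 fold change 1.77, SE 0.16, edgeR adjusted p = 2.63e-07). In the other table PARD6G had 3.92, 3.59 and 5.89 CPM in controls, 7.34, 7.36 and 5.46 CPM in SP 3 h and 7.08, 7.43 and 7.97 CPM in SP 24 h, and the 24 h rise passed (log2 fold change 0.73, edgeR adjusted p = 0.0267) but was lost in 5 of 18 settings. PARD6B passed as higher at 24 h and 3 days (log2 fold change 0.60 and 0.47). Per exon length, PARD6A and PARD6B were near each other in the 3-day controls (4.47 ± 0.282 and 4.38 ± 0.538 RPKM), above PARD6G (0.806 ± 0.113 RPKM), and in SP 12 days PARD6A was the lowest of the 3 (1.51 ± 0.386 RPKM, against 5.07 ± 0.249 for PARD6B and 2.76 ± 0.257 for PARD6G).

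PARD3, the scaffold of the complex, had 229.9, 226 and 211 CPM in the 24 h controls, 177, 182 and 194 CPM in SP 3 h and 260.3, 259 and 246 CPM in SP 24 h. The 3 h libraries lay below and the 24 h libraries above all controls, and neither change passed (log2 fold change -0.27 and 0.20, edgeR adjusted p = 0.0768 and 0.112). DESeq2 called the 3 h fall (log2 fold change -0.29, DESeq2 adjusted p = 0.00913). At 3 days it rose from 222, 227 and 239 CPM to 305, 299 and 326 CPM (log2 fold change 0.44, SE 0.076, edgeR adjusted p = 0.000202), and SP 12 days had 290.1, 301 and 314 CPM (log2 fold change 0.40, SE 0.076, edgeR adjusted p = 0.000437). Of the 2 atypical protein kinase C genes, PRKCZ rose by log2 0.82 at 24 h, 0.93 at 3 days and 0.96 at 12 days (edgeR adjusted p = 0.0027, 1.47e-06 and 9.09e-07), with 590 bp of its exons shared with FAAP20 on the opposite strand. PRKCI passed at 3 days and 12 days with smaller values (log2 fold change 0.24 and 0.30), and the 3-day call was lost when any of 5 libraries was left out.

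**Figure D4:**
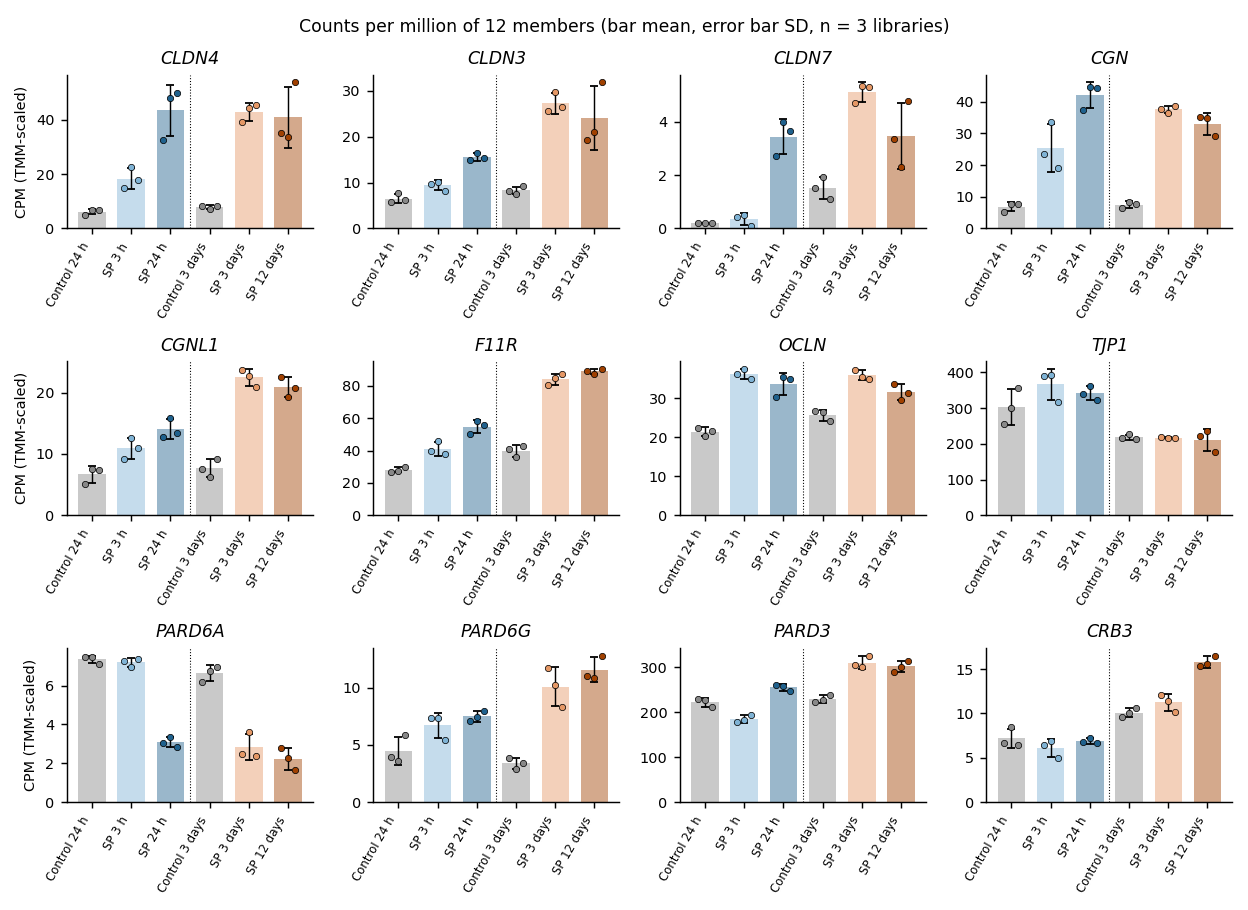
TMM-scaled CPM (y axis) of 12 members in the 6 groups (x axis), with bars for the mean, error bars for the SD and a point for each of 3 libraries. The dotted line parts the 2 tables, and CLDN4, CGN, CGNL1, F11R and OCLN lie above their controls in every SP group while PARD6A lies below them from 24 h on.

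None of the 3 Crumbs complex members passed before 12 days. With edgeR, 0 of 3 passed at 3 h, 24 h and 3 days. At an unadjusted p under 0.05, 0, 0 and 1 did, and DESeq2 called 0 in each. Among all tested genes, 7.39%, 16.8% and 25.2% passed as higher at these times and 4.11%, 12.0% and 23.3% as lower. With 3 genes, a count of 0 cannot be told apart from these shares. CRB3, the epithelial Crumbs protein, had 6.62, 8.45 and 6.49 CPM in the 24 h controls, 6.42, 6.88 and 4.97 CPM in SP 3 h and 6.84, 7.21 and 6.62 CPM in SP 24 h, with overlap. It had 9.66, 10.03 and 10.6 CPM in the 3-day controls and 12.1, 11.5 and 10.2 CPM in SP 3 days, also overlapping, and 15.3, 15.6 and 16.5 CPM in SP 12 days, above all of them (log2 fold change 0.65, SE 0.11, edgeR adjusted p = 0.000154). PATJ, the multi-PDZ partner of PALS1, had 40.8, 47.3 and 35.7 CPM in the 24 h controls, 34.8, 41.2 and 37.2 CPM in SP 3 h and 33.4, 38.7 and 31.8 CPM in SP 24 h. In the 3-day table it went from 52.2, 57.4 and 50.5 CPM in controls to 65.1, 55.1 and 61.9 CPM at 3 days and 64.9, 67.7 and 68.6 CPM at 12 days, and the 12-day difference passed (log2 fold change 0.33, SE 0.086, edgeR adjusted p = 0.00462). Offsets for GC content and length made CRB3 and PATJ pass as lower at 24 h (log2 fold change -0.59 and -0.32, edgeR adjusted p = 0.0123 and 0.034). PALS1 had log2 fold changes between -0.39 and 0.15 and passed in no comparison, and a long non-coding RNA on the opposite strand shares 1563 bp of its exons.

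The SP groups of a table were also compared with each other, since each pair shares its controls. Between 3 h and 24 h of SP, 11 members were higher at 24 h and 2 lower, against 11.7% and 8.4% of all tested genes, and 0 passed the study's threshold, which 0.0288% of all genes passed as higher. The higher ones were 6 claudins (CLDN2, CLDN3, CLDN4, CLDN7, CLDN10, CLDN16), F11R, TJP3, CGN, MAGI1 and PARD3, and the lower ones MAGI3 and PARD6A. CLDN7 and CLDN10 differed most, by log2 3.32 (SE 0.41) and 3.96 (SE 0.47), and CLDN4 by 1.24 (SE 0.21, edgeR adjusted p = 0.0042). OCLN did not pass here (log2 fold change -0.11, 95% interval -0.35 to 0.13). Between 3 and 12 days of SP, 4 members were higher at 12 days (CLDN1, CLDN12, MARVELD3, CRB3) and AMOTL1 was lower, against 4.46% and 3.65% of all tested genes, and 0 passed the study's threshold, against 0.152% higher and 0.0281% lower. Without SP 12 days replicate 3 the count was 5 higher and 10 lower, and the share of all genes rose as well, to 13.6% higher and 14.5% lower. The higher ones were then CLDN1, CLDN12, MARVELD3, CRB3 and PALS1. The lower ones were 6 claudins (CLDN2, CLDN3, CLDN4, CLDN7, CLDN10, CLDN23), TJP3, MAGI1, AMOTL1 and PARD6B, with log2 differences of -2.10 for CLDN2 and -0.33 for CLDN4. For CGN the log2 difference between 12 and 3 days was -0.19 (95% interval -0.41 to 0.036) and for F11R 0.080 (-0.094 to 0.25), and neither passed.

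A further 45 genes of tight junctions and polarity complexes were read from the same fits, of which 33 were tested in the 24 h table and 34 in the other. At 3 h 2 were higher and 0 lower (7.39% and 4.11% of all tested genes), at 24 h 11 and 1 (16.8% and 12.0%), at 3 days 13 and 4 (25.2% and 23.3%), and at 12 days 15 and 7 (26.4% and 23.4%). The 2 genes higher at 3 h were LIN7B, a partner of PALS1, and the adhesion molecule ESAM, with log2 fold changes of 1.45 and 0.64. The most raised at 24 h were the Crumbs gene CRB2, the angiomotin gene AMOT and TIAM1, a Rac exchange factor that binds PARD3, with log2 fold changes of 2.81, 2.51 and 2.05, and PARD3B was the 1 that fell (-0.72). At 3 days ESAM (2.75), ILDR2 (2.72) and TIAM1 (2.56) led the log2 rises, and ARHGEF11 (-0.59), TJAP1 (-0.52) and ARHGEF2 (-0.41) the falls. At 12 days ILDR2, TIAM1 and LSR rose most (log2 fold change 3.45, 2.57 and 1.92), the first and last being angulins of tricellular contacts, and LIN7A, TJAP1 and ARHGEF11 fell (-1.66, -0.60 and -0.58). CRB2 and ILDR2 had means of at most 1.09 and 0.86 CPM in the groups compared. Among these genes the 5 tested junction membrane proteins passed as higher at 3 days and again at 12 days, while of 12 scaffolds 3 passed as higher and 6 as lower at 12 days.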

How the data were processed

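RNA-seq libraries of A549 cells with and without SP were read from 2 deposited tables of raw counts, 18 libraries in 6 groups of 3. The authors prepared the libraries with the NEBNext Ultra kit from total RNA, sequenced them on an Illumina NovaSeq instrument in paired-end mode, aligned reads to GRCh38 with STAR 2.7.9a and counted them per Ensembl gene with featureCounts, so the deposited counts are whole reads without normalization. Strandedness and the treatment of reads with several matches are not given in the sources used here. The members and gene lists were chosen with earlier results of these data known.

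The tests were run with edgeR 4.0.16 under R 4.3.3: filterByExpr (minimum count 10, leaving 17775 and 17377 genes), TMM scaling, and a robust quasi-likelihood fit by group to all 9 libraries of a table. The Benjamini-Hochberg adjustment covered every tested gene, and passing means an adjusted p under 0.05. The study's thresholds, which its authors used with DESeq2 1.36.0, served as an alternative call. CPM are TMM-scaled within a table, and RPKM use the union exon length of GENCODE v44 (GRCh38), which matched 61369 of 61541 listed genes. Values in every library are given for members past the study's threshold in a comparison with control and for TJP1, OCLN, F11R, PARD3, CRB3 and PATJ. CLDN2, CLDN10, TJP3 and some other members were added after their values were seen. Of the 45 further genes, up to 3 rises and 3 falls per comparison with control are named. Depth, the smallest library holding 14187401 reads, limits the members with few reads, and intervals of read ratios are exact binomial at 95% and cover counting error only. The study describes the libraries of the 24 h table as biological replicates. Elsewhere the p-values measure the spread between libraries, which may be technical.

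Deviations of same-numbered libraries from their group means correlated at 0.50, 0.17 and 0.50 between control 24 h and SP 24 h, all over 0.1, so these were treated as paired by number in an alternative fit. Differently numbered libraries of these groups correlated at -0.55 to 0.17, so the pairing of replicate 2 does not stand out. Other alternatives were DESeq2 1.42.0, RLE size factors, no filter, only the 2 groups compared, offsets for GC content and length (mgcv 1.9.3), counts thinned to the smallest library, and each library left out.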

Additional observations from a re-analysis of the deposited data

Results flagged for a closer look

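Members are listed here because the SP groups of the same table differed from each other in the direct edgeR test, so that their change from the shared control was not the same at both times. Between 3 h and 24 h of SP, log2 differences (24 h minus 3 h) were 1.31 for CLDN2, 0.73 for CLDN3, 1.24 for CLDN4, 3.32 for CLDN7, 3.96 for CLDN10 and 1.87 for CLDN16. Outside the claudins they were 0.42 for F11R, 1.57 for TJP3, 0.73 for CGN, 0.64 for MAGI1, 0.47 for PARD3, -0.60 for MAGI3 and -1.22 for PARD6A. CLDN2, CLDN4, CLDN7, CLDN10 and PARD6A were the 5 of these 13 that passed in every alternative setting.

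Between 3 and 12 days of SP, log2 differences (12 days minus 3 days) were 0.40 for CLDN1, 0.46 for CLDN12, 0.57 for MARVELD3, 0.49 for CRB3 and -0.52 for AMOTL1. CLDN12 and AMOTL1 passed in every alternative setting, and the other 3 each lost their call when a single library was left out.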

How the results depend on the processing

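Of the members that passed, those that passed at an adjusted p under 0.05 in all 18 alternative settings numbered 0 of 6 at 3 h, 12 of 17 at 24 h, 19 of 21 at 3 days and 18 of 24 at 12 days. The 0 at 3 h was fixed by a setting, given next, in which no gene of any kind passed, so it does not grade those 6 members. For 3 h against control, the count of 6 became 10 with DESeq2, 3 with only the 2 groups compared, 0 when those groups also had the replicate block (chosen after seeing the data, a setting in which 0 of 16151 genes passed in either direction), and 10 with the GC content and length offsets plus the replicate block. Leaving out a library gave 3 to 7 (3 without control 24 h replicate 1 or SP 3 h replicate 2), 12 to 21 at 24 h, 19 to 24 at 3 days and 21 to 24 at 12 days. Between 3 h and 24 h of SP it gave 7 to 16 around 13 (7 without SP 3 h replicate 3 or SP 24 h replicate 2, 8 without SP 3 h replicate 1), and between 3 and 12 days 2 to 15 around 5 (the former when replicate 2 of SP 3 days was left out, the latter when replicate 3 of SP 12 days was, and 3 for replicate 3 of SP 3 days or replicate 1 of SP 12 days). The latter count was 3 with the 2 groups and the replicate block. At the study's threshold the edgeR counts, first for the 4 comparisons with control by time and then for the 2 between SP groups, were 0, 1, 9, 8, 0 and 0. The DESeq2 counts at that threshold, an alternative chosen after seeing the data, were 2, 8, 11, 9, 5 and 0. CLDN23 at 24 h reversed from 0.13 to -0.41 with the GC content and length offsets (edgeR adjusted p = 0.0154) and to -0.40 with the replicate block added (edgeR adjusted p = 0.0138). Those offsets moved the share of higher calls among all called genes from 64.3% to 47.9% at 3 h, from 58.3% to 36.3% at 24 h, from 52.0% to 39.0% at 3 days and from 53.0% to 41.5% at 12 days. The cause was not tested. The replicate block alone gave 18 members at 24 h, adding MARVELD3, and 8 at 3 h, and moved no member count by over 1.5 times. Same-numbered libraries of the other comparisons did not deviate together throughout (correlations -0.59 to 0.38), so there the numbers were not taken as pairs. Some differently numbered libraries did, such as SP 3 h replicate 3 with control 24 h replicate 1 (0.58) and SP 3 h replicate 2 with control 24 h replicate 3 (0.52). What such libraries share was not tested.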
